A study of Mus musculus with 2 samples.

Results

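The genes studied here encode the enzymes and regulators through which sterol regulatory element-binding proteins (SREBPs) drive the making of cholesterol, fatty acids and triglycerides, and their transcripts were compared in dermatitic mouse skin with and without ZAG. ZAG, or zinc-alpha-2-glycoprotein, circulates in blood and is known to mobilise lipid from fat tissue. By role the 37 genes are sterol synthesis genes (19), fatty acid and triglyceride synthesis genes (12) and regulators (6). Of the 37, 34 had a probe whose platform annotation gives that gene symbol alone, out of 22180 genes measured in all. They were 17 sterol genes, 11 fatty acid and triglyceride genes and all 6 regulators. Acat2 had no listed probe, and Idi1 and Scd2 were found only on probes that list another gene too. These 3 genes enter no count or median.

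The ZAG array was of dorsal skin from female NC/Nga mice, which are inbred and develop dermatitis readily. Dermatitis was induced with an ointment of Dermatophagoides farinae (house dust mite) body extract and recombinant ZAG was applied to the skin. The control array was of dorsal skin from female NC/Nga mice with the same mite-induced dermatitis and a treatment labelled control. The mice were 6 weeks old at the start, had 6 weeks of ointment and, where treated, 6 weeks of ZAG, and were 13 weeks old at sampling. The design text gives a ZAG dose of 1 µg/mL and 3 mice in each group, but the table holds 1 array per group, and the sources do not say whether an array carries 1 mouse or a pool. Both groups were dermatitic, so no healthy skin enters the comparison. No value therefore has a replicate error, no difference was tested, and each difference describes these 2 arrays. In bulk skin, fewer cells of a type and less RNA per cell cannot be told apart. The epidermal keratin gene Krt10 was at a log2 level of 12.16 on the ZAG array and 12.15 on the control array, and Krt14 was at 10.62 on the ZAG array and 11.35 on the control array, so both arrays carry the markers of the labelled tissue.

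SREBPs are made as precursors held in the membrane of the endoplasmic reticulum. The escort protein SCAP carries them to the Golgi for cleavage when sterols are scarce, and INSIG proteins hold SCAP back when sterols are plentiful. The product of Srebf2 mainly drives cholesterol genes and that of Srebf1 mainly drives fatty acid genes. In skin, cholesterol and fatty acids go into the barrier lipids of the epidermis, into sebum and into the fat below the dermis.

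As a set, the genes held shares of higher and lower members near those of other genes, while single regulators differed by more. The largest difference was in Insig2, which was 1.75-fold higher on the ZAG array. Insig1 was 1.36-fold higher, whereas Srebf2 had a log2 difference of -0.40. Differences are given as ZAG minus control on the log2 scale, and 0.25 (1.19-fold) was used as a mark of size. It was chosen because probes of the same gene disagreed by a similar amount, with an SD of 0.244. That SD is over the 591 genes with several probes and a level at or above the median of the table. Of the 34 genes, 5 (14.7%) were at least 0.25 higher and 7 (20.6%) at least 0.25 lower. Among the 11090 genes at or above the median level of the table, 18.9% were at least 0.25 higher and 19.8% at least 0.25 lower, so both shares lay near the background. None of the 34 genes was 2-fold higher or lower, against 0.271% and 1.15% of those 11090 genes. The median difference was -0.01 for the 34 genes and 0.02 for the 11090 genes. Above 0 were 17 of the 34 genes, where 52.3% of the 11090 genes were, and below 0 were the other 17, where 47.6% were. All 34 were above the background gauge of 3.16 on both arrays, the gauge being the 95th percentile of mean levels over 1390 olfactory and vomeronasal receptor genes.

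**Figure D1:**
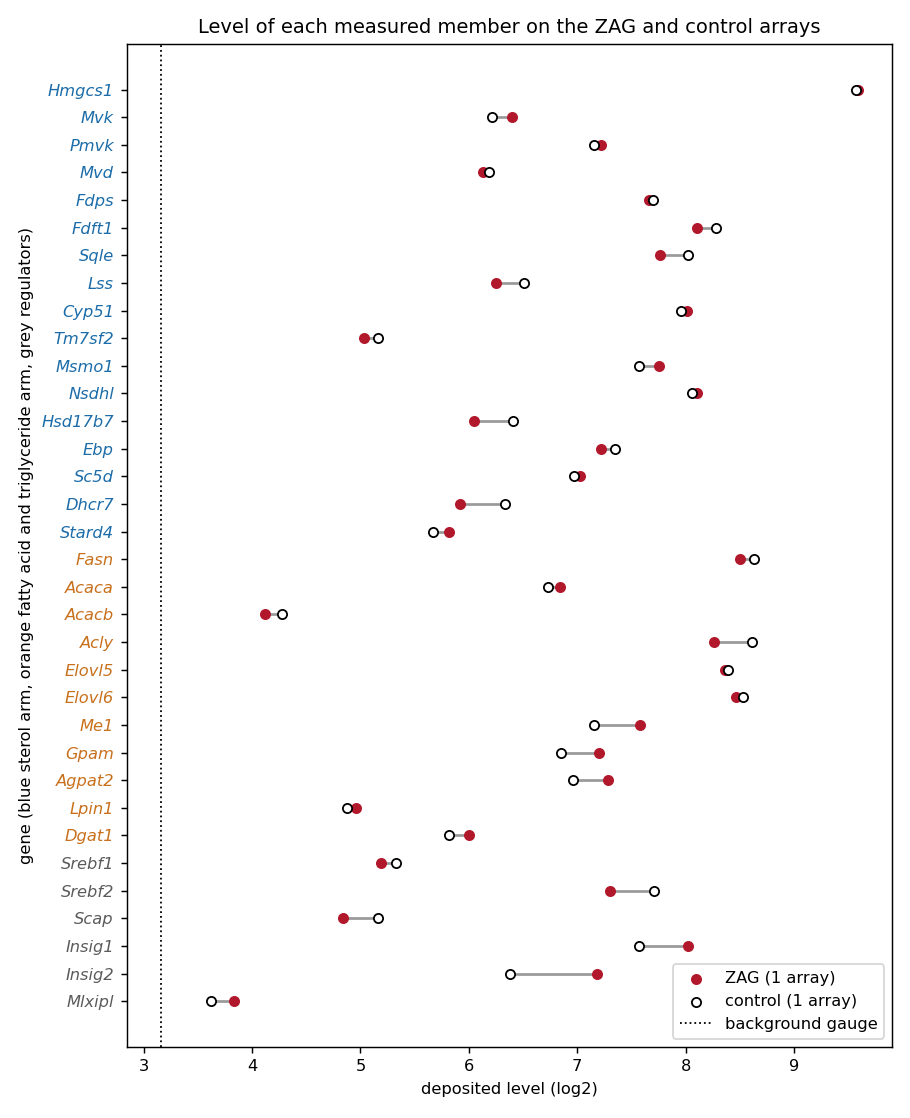
Deposited log2 level of each of the 34 measured genes, 1 row per gene, with the ZAG array filled and the control array open (1 array each). The dotted line is the background gauge at 3.16, and the widest gap is that of Insig2 (7.18 with ZAG, 6.38 in control).

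Among the regulators, both genes of the INSIG proteins were higher on the ZAG array and Srebf2 and Scap were lower, with 2 of 6 (33.3%, against the 18.9% background) at least 0.25 higher and 2 of 6 (33.3%, against 19.8%) at least 0.25 lower. With 6 genes, each gene is a large share of the list. Insig2, which encodes a retention protein for SCAP, had a log2 level of 7.18 on the ZAG array and 6.38 on the control array, a difference of 0.81. Only 0.784% of the 11090 genes at or above the median level had a difference as high or higher. Insig1, which encodes the other retention protein and is itself an SREBP target, was at 8.02 with ZAG and 7.57 in control, a difference of 0.45, and 5.71% of those genes were as high or higher.

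The genes of the factors that INSIG proteins hold back lay on the other side. Srebf2 was at 7.30 with ZAG and 7.70 in control, a difference of -0.40, and 10.6% of the 11090 genes were as low or lower. Scap, the escort gene, averaged 4.84 with ZAG and 5.16 in control over 2 probes, a difference of -0.32. Its probes disagreed. The brighter one was at 6.92 with ZAG and 7.58 in control, a difference of -0.66, while the other was at 2.77 with ZAG and 2.75 in control, below the gauge on both arrays. Srebf1 differed by -0.14, at 5.19 with ZAG and 5.33 in control, which is less than the probe SD. Mlxipl, which encodes the sugar-responsive factor ChREBP, was dim, at 3.84 with ZAG and 3.62 in control, a difference of 0.22. It was the only one of the 34 below the median level of all genes.

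Of 5 listed genes that act on SREBPs or their retention after translation, 3 were measured, all within 0.25 of 0. They were Mbtps1 (-0.02), Mbtps2 (0.11) and Rnf139 (0.13), the first pair encoding the proteases that cut SREBPs in the Golgi and the last a ubiquitin ligase of the endoplasmic reticulum.

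**Figure D2:**
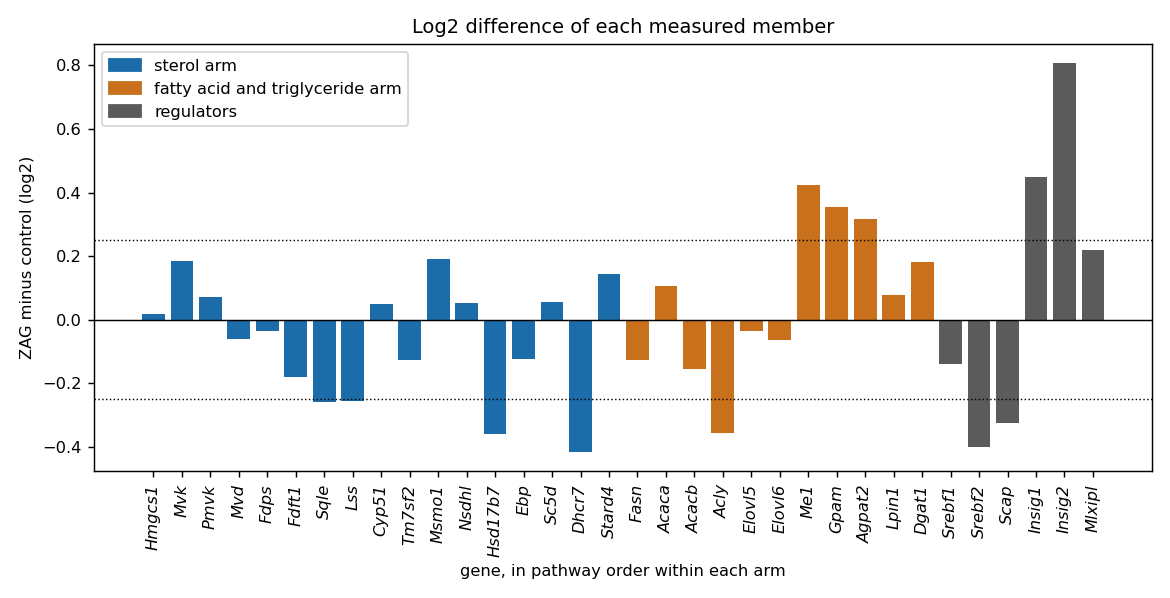
Log2 difference (ZAG minus control) of each of the 34 measured genes in pathway order, coloured by arm, with dotted lines at 0.25 either way. No sterol gene reaches the upper line, and the regulators run from -0.40 (Srebf2) to 0.81 (Insig2).

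Promoter sequence is shown for both INSIG genes and Srebf2, which differed in opposite directions, for Hsd17b7, a sterol gene that was lower, and for Hmgcs1, a sterol gene that hardly differed and that is a textbook SREBP target. The sequences are those of RefSeq (GRCm38.p6) around the annotated start, read 5′ to 3′ on the gene's strand. Capitals mark matches on either strand to the sterol regulatory element TCACNCCAC, the E-box CACGTG and the CCAAT box, the last being the site of the SREBP partner NF-Y. No 2 of the marked matches overlap. Insig2 has 3 annotated starts, of which the one farthest upstream is shown. The windows of its other starts hold 0 matches to the motifs.
Insig1, chr5:28071162-28071461, plus strand: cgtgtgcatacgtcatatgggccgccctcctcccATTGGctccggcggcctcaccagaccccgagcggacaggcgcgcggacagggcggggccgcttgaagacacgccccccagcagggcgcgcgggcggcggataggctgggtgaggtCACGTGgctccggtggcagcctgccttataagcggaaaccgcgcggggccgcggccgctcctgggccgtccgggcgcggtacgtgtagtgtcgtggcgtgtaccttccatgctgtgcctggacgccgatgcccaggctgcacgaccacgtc
Insig2, chr1:121332540-121332839, minus strand: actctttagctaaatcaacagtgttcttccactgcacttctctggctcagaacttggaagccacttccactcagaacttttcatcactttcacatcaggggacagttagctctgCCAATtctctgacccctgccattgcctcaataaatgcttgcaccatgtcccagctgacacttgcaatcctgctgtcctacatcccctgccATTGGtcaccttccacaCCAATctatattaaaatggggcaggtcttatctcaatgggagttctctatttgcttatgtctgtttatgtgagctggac
Srebf2, chr15:82147019-82147318, plus strand: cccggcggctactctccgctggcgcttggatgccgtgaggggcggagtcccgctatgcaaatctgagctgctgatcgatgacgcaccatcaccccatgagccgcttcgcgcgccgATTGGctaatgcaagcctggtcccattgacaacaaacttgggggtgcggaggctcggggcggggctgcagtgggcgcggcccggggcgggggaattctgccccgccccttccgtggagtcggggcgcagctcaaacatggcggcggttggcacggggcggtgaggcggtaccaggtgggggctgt
Hsd17b7, chr1:169969156-169969455, minus strand: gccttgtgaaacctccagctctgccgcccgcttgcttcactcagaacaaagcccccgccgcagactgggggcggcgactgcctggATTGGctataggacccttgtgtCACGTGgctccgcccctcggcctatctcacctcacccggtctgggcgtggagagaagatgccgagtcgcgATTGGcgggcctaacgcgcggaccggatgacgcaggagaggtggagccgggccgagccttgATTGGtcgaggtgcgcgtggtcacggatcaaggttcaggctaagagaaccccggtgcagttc
Hmgcs1, chr13:119690101-119690400, plus strand: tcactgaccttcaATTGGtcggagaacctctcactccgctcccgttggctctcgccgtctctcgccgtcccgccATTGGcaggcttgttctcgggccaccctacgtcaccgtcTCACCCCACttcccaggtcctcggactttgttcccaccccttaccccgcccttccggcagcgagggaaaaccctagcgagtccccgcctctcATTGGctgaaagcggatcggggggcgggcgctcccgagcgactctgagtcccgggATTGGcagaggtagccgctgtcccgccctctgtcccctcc

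Hmgcs1 held the sterol element, matched as TCACCCCAC, and 4 CCAAT boxes. Insig1 held 1 E-box and 1 CCAAT box, Hsd17b7 1 E-box and 3 CCAAT boxes, Insig2 3 CCAAT boxes and Srebf2 1 CCAAT box. Promoter windows were found for 31 of the 37 genes, in 42 windows. The CCAAT box was in 26 of these 42 windows (61.9%), against 37.4% of the 32851 promoter windows of the mouse table. The E-box was in 8 (19.0%), against 7.15%, and the sterol element in 2 (4.76%), those of Hmgcs1 and Mlxipl, against 1.24%. Insig1 and Hsd17b7, which both hold an E-box and a CCAAT box in the windows shown, had differences of 0.45 and -0.36. Only exact matches inside the windows were counted, so a site that differs by a letter or lies elsewhere would be missed. A match is a description of letters, and no binding was measured.

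In the sterol arm, Sqle, Lss, Hsd17b7 and Dhcr7 were at least 0.25 lower on the ZAG array and the other genes lay within 0.25 of 0. The 17 measured genes had a median difference of -0.03, with 8 above 0 and 9 below. At least 0.25 lower were 4 of 17 (23.5%, against the 19.8% background), and 0 of 17 were at least 0.25 higher (against 18.9%). The steps below are in pathway order, and this grouping was made with the values known.

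Mevalonate, the building block of all isoprenoids, is made and activated by the first enzymes. Hmgcs1, the synthase that makes its direct precursor, was at 9.59 with ZAG and 9.57 in control, a difference of 0.02. The kinase gene Mvk was at 6.39 with ZAG and 6.21 in control (0.19), and the kinase gene Pmvk at 7.22 with ZAG and 7.15 in control (0.07). Mvd, the decarboxylase gene, differed by -0.06, and Fdps, the gene of farnesyl diphosphate synthase, by -0.03. All 5 measured genes of these steps were therefore within 0.25 of 0.

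The squalene steps commit farnesyl diphosphate to sterols, and all 3 of their genes were below 0, where 47.6% of the 11090 genes were. Of the 3, 2 (66.7%, against 19.8%), Sqle and Lss, were at least 0.25 lower. Sqle, the gene of squalene epoxidase and a rate-limiting step of the pathway, was at 7.76 with ZAG and 8.02 in control, a difference of -0.26. Lss, which encodes the cyclase that makes lanosterol, was at 6.25 with ZAG and 6.50 in control, also -0.26. Fdft1, the squalene synthase gene, was at 8.10 with ZAG and 8.28 in control, a difference of -0.18. Differences of this size are close to the probe SD of 0.244, and that of Lss was -0.24 after quantile normalization.

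From lanosterol to cholesterol, 8 genes were measured, with 4 above 0 and 4 below. The lowest was Dhcr7, the reductase gene of the last step, at 5.92 with ZAG and 6.33 in control, a difference of -0.42 (1.33-fold lower). Hsd17b7, a ketosteroid reductase gene of the demethylation steps, was at 6.05 with ZAG and 6.40 in control, a difference of -0.36 (1.28-fold lower). The others lay between -0.13 and 0.19. Those below 0 were the reductase gene Tm7sf2 (-0.13) and the isomerase gene Ebp (-0.12). Those above 0 were the oxidase gene Msmo1 (0.19), the desaturase gene Sc5d (0.06), the dehydrogenase gene Nsdhl (0.05) and the lanosterol demethylase gene Cyp51 (0.05). Nsdhl and Cyp51, like Hmgcs1, turned below 0 under at least 1 rescaling of the arrays. Stard4, which encodes a carrier of sterol between membranes, was at 5.82 with ZAG and 5.67 in control (0.14).

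**Figure D3:**
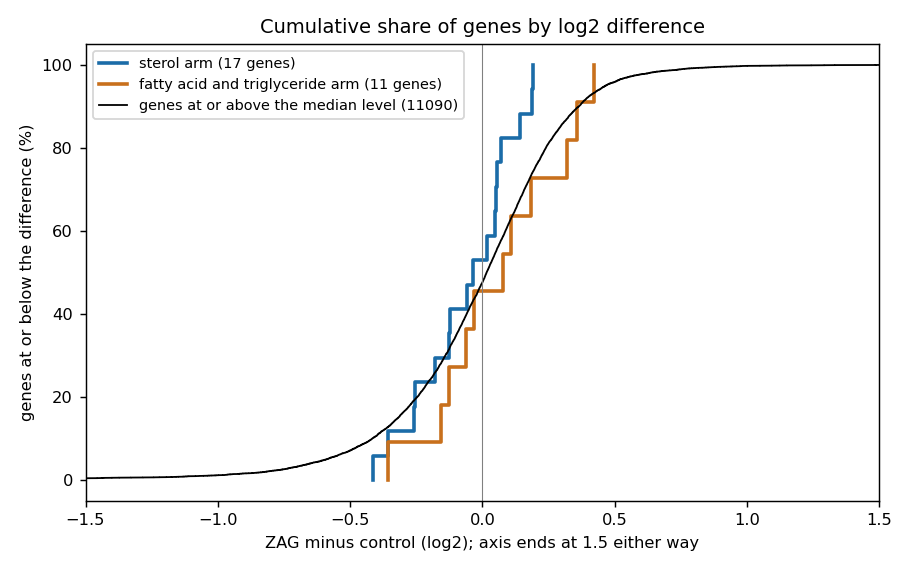
Cumulative percentage of genes against the log2 difference (ZAG minus control) for the sterol arm (17 genes), the fatty acid and triglyceride arm (11 genes) and the 11090 genes at or above the median level. The sterol curve ends at 0.19 and the fatty acid and triglyceride curve at 0.42.

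In the fatty acid and triglyceride arm, Me1, Gpam and Agpat2 were at least 0.25 higher on the ZAG array, Acly was at least 0.25 lower, and the other 7 genes lay within 0.25 of 0. Over the arm, the median difference was 0.08, with 6 of 11 above 0 and 5 below. At least 0.25 higher were 3 of 11 (27.3%, against the 18.9% background), and 1 of 11 (9.09%, against 19.8%) was at least 0.25 lower.

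Fatty acid synthesis begins with cytosolic acetyl-CoA, made by ATP citrate lyase. Its gene Acly was at 8.26 with ZAG and 8.61 in control, a difference of -0.36, the lowest of the arm. Fasn, the fatty acid synthase gene, was at 8.50 with ZAG and 8.63 in control (-0.13). The acetyl-CoA carboxylase genes differed in sign and by little. Acaca was at 6.84 with ZAG and 6.73 in control (0.11), and Acacb at 4.12 with ZAG and 4.28 in control (-0.16). The elongase genes Elovl5 (-0.03) and Elovl6 (-0.06) hardly differed. Me1 was the exception. It encodes malic enzyme, a source of NADPH for lipid synthesis, and was at 7.58 with ZAG and 7.16 in control, a difference of 0.42 (1.34-fold higher). Of the 11090 genes, 6.73% were as high or higher.

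Triglycerides are built on glycerol phosphate by acyltransferases and a phosphatase, and all 4 genes measured were above 0, where 52.3% of the 11090 genes were. Of the 4, 2 (50.0%, against 18.9%) were at least 0.25 higher, and the others were within 0.25 of 0. Gpam, which encodes the mitochondrial acyltransferase of the first step, was at 7.20 with ZAG and 6.85 in control (0.36). Agpat2, the gene of the next acyltransferase and one needed for fat tissue in mouse and human, was at 7.28 with ZAG and 6.96 in control (0.32). The phosphatase gene Lpin1 differed by 0.08 and Dgat1, the gene of a last-step acyltransferase, by 0.18. The median of these 4 genes was 0.25, against -0.06 for the 7 genes of fatty acid synthesis.

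Set against each other, the arms differed in median by -0.11 (sterol minus fatty acid and triglyceride). With 1 array per group it has no replicate error and was not tested. Leaving out Me1, Gpam and Agpat2, the highest genes of the fatty acid and triglyceride arm and chosen after their values were seen, had to lower that arm's median. It was then -0.05, and the arm difference was 0.015. The rescalings of the arrays gave arm differences from -0.13 to -0.11. The arms leave out Scd2 and Idi1, whose probes list another gene too. The Scd2 probe was at 8.96 with ZAG and 9.32 in control (-0.36), so counting it would lower the fatty acid and triglyceride median. The Idi1 probe was at 7.86 with ZAG and 7.84 in control (0.02).

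Markers of lipid-storing and lipid-secreting cells were mostly higher on the ZAG array. Adipocyte markers had a median difference of 0.42 over 11 genes, with 10 (90.9%, against the 18.9% background) at least 0.25 higher. Among the 10 were the adipokine gene Adipoq (0.41), the lipid droplet gene Plin1 (0.57) and Fabp4 (0.57), while Lipe (-0.13) was below 0. The mean log2 level of the adipocyte markers was 6.93 with ZAG and 6.56 in control. Sebaceous gland markers had a median of 0.33 over 11 genes, with 6 (54.5%, against 18.9%) at least 0.25 higher. They included the receptor gene Mc5r (0.54), the desaturase gene Scd3 (0.75) and the elongase gene Elovl3 (0.37). The mean level of the sebaceous markers was 6.89 with ZAG and 6.56 in control. No adipocyte marker was below the background gauge, and of the sebaceous markers only Gal was, on both arrays. Hair shaft and root sheath markers were higher too, with a median of 0.63 over 13 genes and all 13 (against 18.9%) at least 0.25 higher. Their mean level was 9.87 with ZAG and 9.22 in control. The part of these cells in the values of the 34 genes, higher or lower, was not tested.

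Most markers of basal keratinocytes and macrophages were lower on the ZAG array. Basal keratinocyte markers had a median of -0.55 over 9 genes (mean level 7.13 with ZAG, 7.55 in control). Of the 9, 6 (66.7%, against the 19.8% background) were at least 0.25 lower. At least 0.25 higher was 1 (11.1%, against 18.9%), the stem cell keratin gene Krt15 (0.66). Macrophage markers had a median of -0.61 over 8 genes, also with 6 (75.0%, against 19.8%) at least 0.25 lower (mean level 6.30 with ZAG, 6.96 in control). Late differentiation markers had a median of -0.18 over 10 genes (mean level 9.20 with ZAG, 9.29 in control). Of these 10, 2 (20%, against 19.8%) were at least 0.25 lower and 2 (20%, against 18.9%) at least 0.25 higher, both near the background. Skeletal muscle markers had a median of 0.55 over 10 genes (mean level 7.51 with ZAG, 7.16 in control). Of these 10, 7 (70%, against 18.9%) were at least 0.25 higher and 2 (20%, against 19.8%) at least 0.25 lower. The muscle list ran from -1.69 (Myh2) to 1.59 (Myh4). The part of the cells of these lists in the lipid gene values was not tested.

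**Figure D4:**
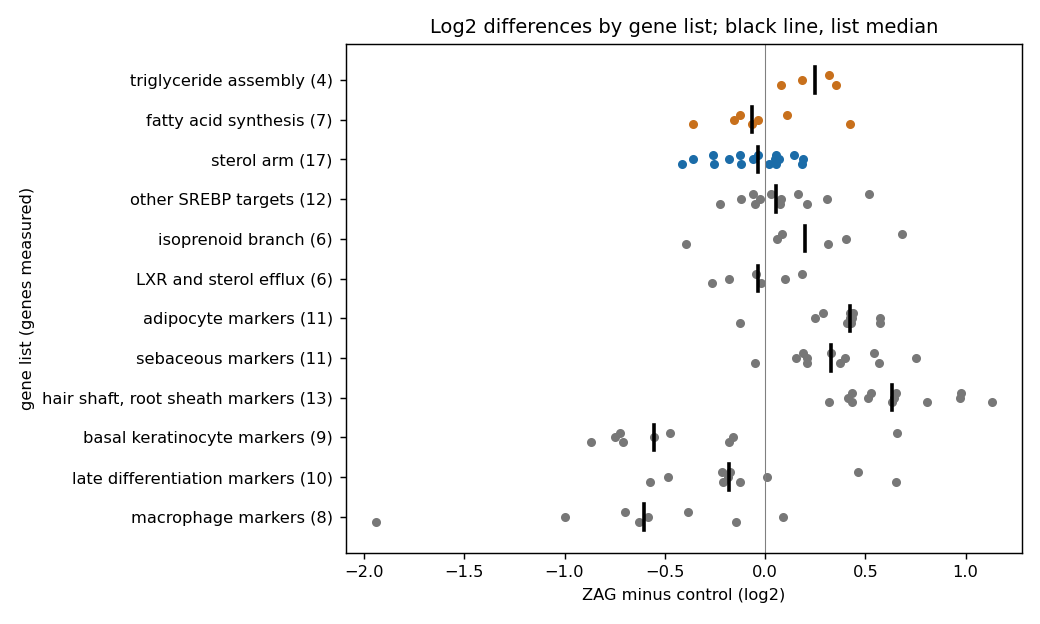
Log2 differences (ZAG minus control) of the genes in each list, 1 point per gene, with the list median as a black line. The 4 triglyceride assembly genes (median 0.25) and the adipocyte (0.42) and sebaceous (0.33) markers lie mostly above 0, and the sterol genes (median -0.03) spread around it.

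Of 17 further SREBP target genes listed, 12 were measured, with a median of 0.05, 7 above 0 and 5 below. At least 0.25 higher were 2 of 12 (16.7%, against 18.9%), and 0 were at least 0.25 lower (against 19.8%). These were Thrsp, a lipogenic gene of fat and liver, at 6.27 with ZAG and 5.75 in control (0.52), and Pnpla3, the gene of a lipid droplet hydrolase, at 6.10 with ZAG and 5.79 in control (0.31). Both are known as targets in the fatty acid and triglyceride arm. The desaturase gene Scd1 was at 10.47 with ZAG and 10.70 in control (-0.23).

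The isoprenoid branch takes farnesyl diphosphate to ubiquinone, dolichol and lipid-modified proteins in place of sterols. Of its 6 measured genes, 3 (50.0%, against 18.9%) were at least 0.25 higher and 1 (16.7%, against 19.8%) at least 0.25 lower, with a median of 0.20. Pdss2, a gene of the synthase that makes the ubiquinone tail, was at 4.16 with ZAG and 3.48 in control (0.68). It was dim, and its control level lay near the background gauge of 3.16 and below the median level of 3.87. Coq2, whose product joins that tail to the ring, was at 4.74 with ZAG and 4.33 in control (0.41). Fnta, the gene of a subunit shared by protein prenyltransferases, differed by 0.31, and Dhdds, a gene of dolichol synthesis, by -0.39. Among genes of the sterol-sensing LXR receptors and sterol efflux, 6 were measured, with a median of -0.03. Of these 6, 1 (16.7%, against 19.8%) was at least 0.25 lower and 0 were at least 0.25 higher (against 18.9%). The lower one was the efflux transporter gene Abcg1, at 5.23 with ZAG and 5.50 in control (-0.26).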

How the data were processed

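The deposited table holds log2 values of 33793 probes on 2 Affymetrix arrays; the log2 scale was inferred from the numbers (0.866 to 13.19 on the ZAG array, 0.889 to 12.75 on the control array). Per the labels' protocols, column-purified RNA was made into biotin-labelled sense cDNA. For background correction, summarisation, normalization and software, the method was not given in the sources used here. Column medians were 3.36 (ZAG) and 3.33 (control), and Pearson's r between the arrays was 0.988 over probes, which are not independent of each other.

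Probes with 1 gene symbol (23521) were averaged per gene, giving 22180 genes. The 1814 probes with several symbols and the 8458 with none were left out. Of the 34 genes reported, 33 had 1 probe, and all 34 symbols matched a RefSeq gene table. The difference is ZAG minus control, with no test because each group has 1 array. The number of arrays limits the precision. The procedure was tested on simulated data with known shifts. Arm medians had to fall within 0.25 of the shift. That margin is wider than the arm medians reported, so the test cannot speak to differences of their size. Members, gene lists and marks of size were chosen with earlier results of these data known. Named outside the members are listed genes at least 0.25 from 0, at most 4 a list, besides Scd1, the SREBP cleavage genes and markers, which were chosen after their values were seen. Alternatives were median centring, quantile normalization, loess (span 0.3), the brightest probe, level filters, means, other marks of size and regulators put in the arms. Work was done in Python 3.11.15 (with pandas 2.3.3 and numpy 2.4.6), loess came from statsmodels 0.14.6, and plots from matplotlib 3.10.9.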

Additional observations from a re-analysis of the deposited data

How the results depend on the processing

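The median of the sterol arm ran from -0.08 to -0.02 over all alternatives, so it kept its sign. The median of all members was -0.074 after loess, which is further below 0 than as deposited (-0.01), and it was 0.0086 as a mean. Leaving out Me1, Gpam and Agpat2, a choice made after the data were seen, gave -0.049 for the fatty acid and triglyceride arm and 0.015 for the arm difference. These are the highest genes of that arm, so its median had to fall. The number of members past the mark of size follows the mark. At 0.15, 9 members were higher and 9 lower, and at 0.5, 1 was higher (Insig2) and 0 lower. The shares of all genes past 0.15 and 0.5 were not computed, so these counts have no background to be read against. Under rescaling and the brightest probe, 5 were at least 0.25 higher and 6 to 7 at least 0.25 lower. Of 136 recomputed member values, 135 moved by less than the SD between probes of one gene, and the exception was Scap with its brightest probe (-0.66). Much of this count was fixed in advance. The brightest probe could not change the 33 members with 1 probe, and median centring shifted every gene by the same -0.027. Rescaling moved no member by more than 0.086 and shifted the median of all genes by -0.027 (median centring), -0.010 (quantile normalization) and -0.023 (loess). The sign turned in 3 members (Cyp51, Hmgcs1 and Nsdhl), each within 0.052 of 0. No paired analysis was possible because each group has 1 array, and for the same reason no replicate could be left out. Among the members, signal over background limited Mlxipl and the dimmer Scap probe most. With 1 array per group, differences between mice and the treatment cannot be told apart.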
